A study of Drosophila melanogaster with 17 samples.

Results

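The genes described here are 8 genes of the ping-pong cycle and the nuage, looked up by name in the study's tables. They are aub, AGO3, vas, spn-E, krimp, qin, tej and squ. All 8 were found among the 12505 protein-coding genes of the RNA table and among the 13797 of the polymerase II (Pol2) table. They were picked by name and function and not by a cut on their values, though earlier results of these data were known. The samples were whole ovaries of Drosophila melanogaster females aged 2 to 4 days, wild type or mutant for cuff. Each assay, RNA-seq and Pol2 ChIP-seq, covered 3 samples per genotype, and each sample pooled the ovaries of about 30 females. The labels name neither the mutant allele nor the strain of the wild type. Cuff ChIP samples, 2 with 3 inputs, were not used for these genes.

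The ping-pong cycle makes and amplifies piRNAs, the small RNAs that silence transposons in the germline. Aubergine and Argonaute3 are Argonaute proteins of the Piwi clade that cut transposon and piRNA precursor transcripts in turn, each cut making the 5′ end of a new piRNA for the other. The cycle runs in the nuage, a ring of cytoplasmic granules around the nuclei of nurse cells, where RNA helicases and Tudor domain proteins bring the partners together. Cuff acts upstream in the nucleus, where with Rhino and Deadlock it allows the transcription of piRNA clusters that feed the cycle.

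The deposited tables give 1 value per gene and genotype, in units of normalised reads, called the authors' mean below. They hold no value per sample, so no SD can be given, and spread between samples enters only through the DESeq p-value deposited with each gene. A gene is called changed where that p is 0.05 or less. The deposited totals were 89336038 normalised reads in wild type and 85598452 in the mutant for RNA, and 51692649 and 50036639 for Pol2. The mutated gene itself, cuff, had an RNA mean of 951 for wild type and 1105 for the mutant (p = 0.9, the authors' deposited table). Its Pol2 values were 829.4 and 805.1 (p = 1, the authors' deposited table). With the allele unnamed, it is not known whether it should lower cuff RNA, so this level does not check the labels, and every direction below rests on them. Mutant here means the samples labelled cuff.

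In RNA, 1 of the 8 genes rose (qin), 1 fell (AGO3) and 6 did not pass. Among all 12505 genes 9.24% passed, 5.5% higher and 3.73% lower, and 1 gene in each direction among 8 is too few to set apart from that background. Stricter calls, none of which any of the 8 genes met, were made for 5.19% of all genes at p of 0.01 or less, for 6.87% with a 2-fold difference as well, and for 2.81% after adjusting the deposited p again (Benjamini-Hochberg). The median log2 change of the 8 genes was -0.07, against 0.02 over all genes. Their median size of change, regardless of sign, was 0.23 on the log2 scale, against 0.53 over all genes and 0.40 over genes with a mean of at least 50. In Pol2 none of the 8 passed by the deposited DESeq p, where 1.46% of 13797 genes did, 0.812% higher and 0.652% lower. The stricter calls were made in Pol2 for 0.79%, 0.645% and 0.355% of all genes.

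AGO3, the Argonaute of the cycle that mainly carries sense-strand piRNAs, had the highest RNA value of the 8 genes. The authors' mean was 66595 for wild type and 36574 for the mutant. This is 1.82-fold lower, a log2 change of -0.86 (p = 0.04, the authors' deposited table). In Pol2 the means were 18337 for wild type and 20875 for the mutant, a log2 change of 0.19 (p = 0.6, the authors' deposited table). The RNA value fell, and the Pol2 mean was not lower.

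qin, also called kumo, encodes a Tudor domain protein with a RING finger that keeps ping-pong between Aubergine and Argonaute3 and away from Aubergine alone. Its RNA mean went from 5968.5 to 10973, a 1.84-fold rise and a log2 change of 0.88 (p = 0.02, the authors' deposited table). It had the lowest wild-type RNA value of the 8 genes. An overlapping gene at nearly the same level, CG31224, had a like difference in RNA, so the rise is uncertain as a measure of qin alone. Its Pol2 means were 11133 and 13108, a log2 change of 0.24 (p = 0.6, the authors' deposited table). Neither AGO3 nor qin was among the study's own calls, which also required at least a 2-fold difference.

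squ (squash), a nuage protein that binds Aubergine, lay just outside the threshold in RNA. Its authors' means were 33909 and 19420, or 1.75-fold lower (p = 0.08, the authors' deposited table). The log2 change of -0.80 was close in size to that of AGO3. Its Pol2 means of 9126 and 8331.2 differed by a log2 of -0.13 (p = 0.7, the authors' deposited table). squ had the highest Pol2 signal per kb of the 8 genes. It lies within the span of grp, so this rank is uncertain as a measure of squ alone.

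The Argonaute aub, whose protein mainly carries antisense piRNAs, had nearly equal values in both genotypes. Its RNA means were 8380.8 and 8185.4, a log2 change of -0.03 (p = 1, the authors' deposited table). In Pol2 it had 3290.7 and 3182.8, a log2 change of -0.05 (p = 0.9, the authors' deposited table).

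Both helicases had RNA means that differed by less than 10 percent between the genotypes. vas encodes a DEAD-box RNA helicase that is a core component of nuage and of the pole plasm. Its RNA means were 27695 and 30009, a difference of 8.36 percent upward (p = 0.7, the authors' deposited table). In Pol2 it had 12984 and 14498, a log2 change of 0.16 (p = 0.7, the authors' deposited table). spn-E (spindle-E) encodes a helicase of the DExH type with a Tudor domain. Its RNA means were 20877 and 21225, a difference of 1.67 percent upward (p = 1, the authors' deposited table). The Pol2 values of spn-E were 2957.5 and 3491.5, a log2 change of 0.24 (p = 0.6, the authors' deposited table).

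Of the other Tudor domain genes, krimp was nearly level and tej had opposite signs in the 2 assays. krimp (krimper) encodes a scaffold that binds both Argonautes. Its RNA means were 12294 and 11449, a log2 change of -0.10 (p = 0.9, the authors' deposited table). The Pol2 values of krimp were 1293.2 and 1263.8, a log2 change of -0.03 (p = 1, the authors' deposited table). tej (tejas) encodes a protein with a Tudor and a LOTUS domain that interacts with Vasa. The RNA mean was 13462 for wild type and 10555 for the mutant, a log2 change of -0.35 (p = 0.7, the authors' deposited table). The Pol2 mean was 733.5 for wild type and 1042.5 for the mutant, a log2 change of 0.51 (p = 0.4, the authors' deposited table). tej had both the lowest Pol2 value of the 8 genes and the largest Pol2 log2 change, and neither of its differences passed. In normalised reads of Pol2, AGO3, qin, vas, squ and spn-E all differed by more than tej.

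**Figure D1:**
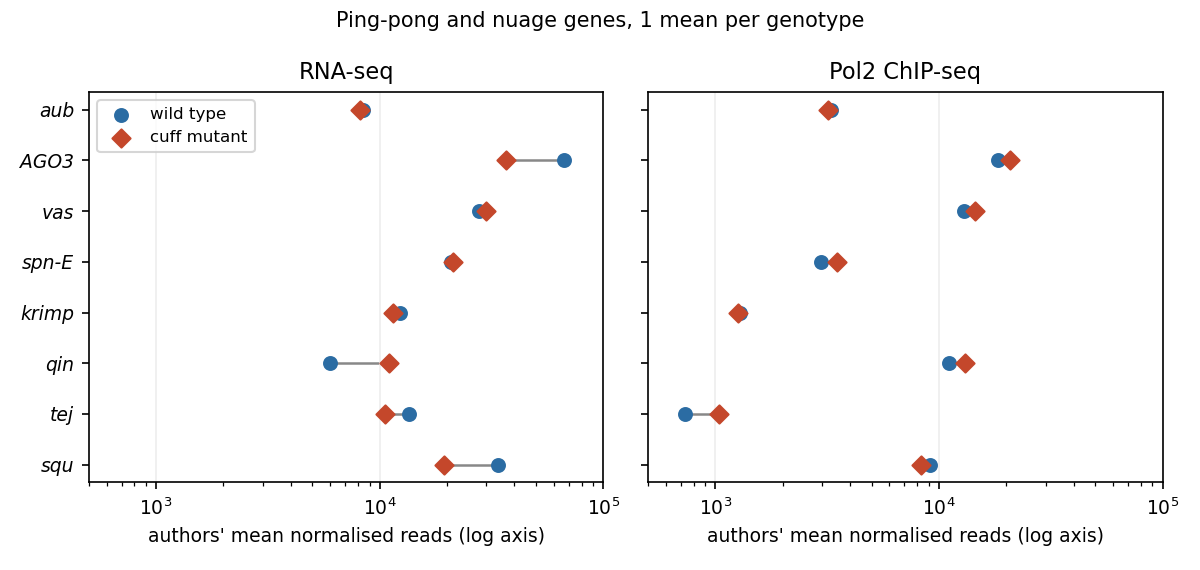
Authors' mean normalised reads of the 8 genes in RNA-seq (left) and Pol2 ChIP-seq (right), on log axes, with wild type as circles and the cuff mutant as diamonds. AGO3 and squ move left and qin moves right in RNA, of which only AGO3 and qin have p of 0.05 or less, while in Pol2 tej has the widest gap on the log axis and no gene passed.

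Summed over the 8 genes, the RNA means came to 189181 for wild type and 148389 for the mutant, 0.784 times as much. Of the difference of -40792, AGO3 accounts for -30022 and squ for -14489. The other 6 genes together had 88677 and 92395. The 8 genes made up 0.212 percent of all RNA values in wild type and 0.173 percent in the mutant. Their summed Pol2 signal was 59855 and 65794, 1.10 times as much in the mutant.

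Ratios between members were compared between the genotypes in RNA. The ratio of vas to aub normalised reads was 3.30 in wild type and 3.67 in the mutant, 1.11 times as large. The ratio of AGO3 to aub was 7.95 in wild type and 4.47 in the mutant, 0.562 times as large. The ratio of qin to AGO3 was 0.0896 and 0.300, or 3.35 times as large. The same ratios in Pol2 were 5.57 and 6.56 for AGO3 to aub, and 0.607 and 0.628 for qin to AGO3. Ratios without AGO3 also differed in RNA. The ratio of qin to aub was 0.712 in wild type and 1.34 in the mutant, 1.88 times as large. That of squ to aub was 4.05 and 2.37, 0.586 times as large. RNA changes went with gene span over the whole table, as described further on, and the ratios are not corrected for it. No replicate value stands behind them and they were not tested.

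Levels between genes were compared per kb of gene span, introns included, with spans from the Release 6 annotation. In wild-type RNA the order was squ (21193 normalised reads per kb), tej (5980.3), krimp (4692.3), spn-E (2983.7), aub (2291.1), vas (2188.3), AGO3 (493) and qin (101). The first 6 lay between percentiles 75.7 and 97.9 of all genes. AGO3 and qin, at percentiles 53.8 and 43.3, have the longest spans, 135 kb and 59.1 kb, so introns weigh most on their values. In wild-type Pol2 signal per kb, squ was again first (5703.8) and AGO3 last (136), at percentiles 98.5 and 16.2. As squ lies within the span of grp, its first place in both orders is uncertain as a measure of squ alone. Which neighbours in these orders differ beyond the spread between samples cannot be said from 1 mean per genotype.

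The position of qin by RNA was low for its Pol2 signal, and that of tej was high. Wild-type RNA divided by wild-type Pol2 signal was 0.536 for qin and 18.4 for tej. Among 8454 genes with a mean of at least 50 in both tables these ratios lay at percentiles 30.8 and 98.9, and the median ratio was 1.36. For krimp and spn-E the ratio was 9.51 and 7.06, at percentiles 95.2 and 91.5. Those of AGO3 (3.63), squ (3.72), aub (2.55) and vas (2.13) lay between percentiles 62.4 and 77.8. As both tables were normalised separately, only the order of these ratios can be read. qin overlaps other genes, among them CG31224 with a wild-type Pol2 mean of 6792.2, and squ lies within grp. The wild-type Pol2 mean of tej, 733.5, was below the 1333.6 of lectin-33A near aub, whose RNA mean was 45. The part of overlap and of Pol2 background in these ratios was not tested.

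RNA and Pol2 changes were set side by side for each gene. The RNA log2 change was below the Pol2 log2 change by 1.05 in AGO3, where both had opposite signs. Of the 8454 genes, 4.66 percent had a difference as low as that of AGO3 or lower. In tej the RNA change minus the Pol2 change was -0.86, at percentile 6.96, and in squ -0.67, at percentile 10.7. In qin it was 0.64, at percentile 81.9. In aub, vas, spn-E and krimp it lay between -0.22 and 0.01. The difference between assays could not be tested without values per sample.

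**Figure D2:**
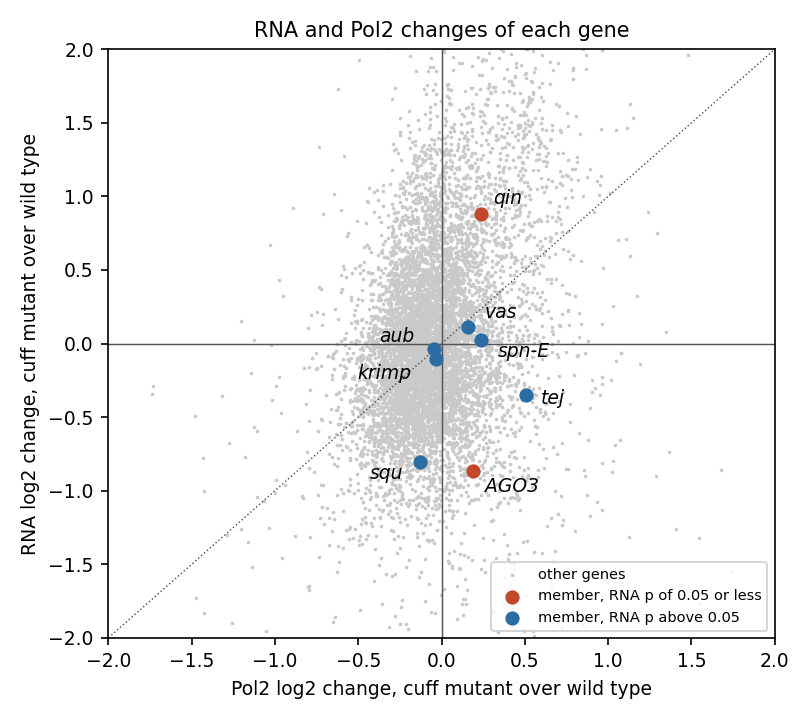
Log2 change in RNA (vertical) against log2 change in Pol2 (horizontal), cuff mutant over wild type, for the 8 genes and for all genes with a mean of at least 50 in both tables (8454, of which 275 lie outside the axes). The dotted line marks equal change. AGO3 lies at -0.86 in RNA and 0.19 in Pol2, and qin at 0.88 and 0.24.

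The sizes of change with and without a call were read from the 200 genes nearest to each member in mean level. Around AGO3, 17 of these 200 genes passed in RNA. The smallest fall called there was a log2 of -0.81 and the largest fall not called -1.07, so the AGO3 value of -0.86 lay where both outcomes occurred. Around qin the smallest rise called was 0.76 and the largest not called 0.92, with qin at 0.88. Around squ the smallest fall called was -0.67 and the largest not called -1.14, with squ at -0.80. The outcomes of these 3 genes are therefore those of genes close to the threshold.

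In Pol2 few genes of like level passed, between 1 of 200 around krimp and 9 of 200 around qin. Around tej the smallest rise called was 1.05, more than the 0.51 measured for tej. Around AGO3 the smallest rise called was 0.71 and the smallest fall -0.60. The largest Pol2 fall there without a call was -0.47 and the largest rise 0.71, and 4 falls and 3 rises were called. The Pol2 value of AGO3, 0.19, lay among values that were not called, and what size of change could have been detected for AGO3 itself was not tested.

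**Figure D3:**
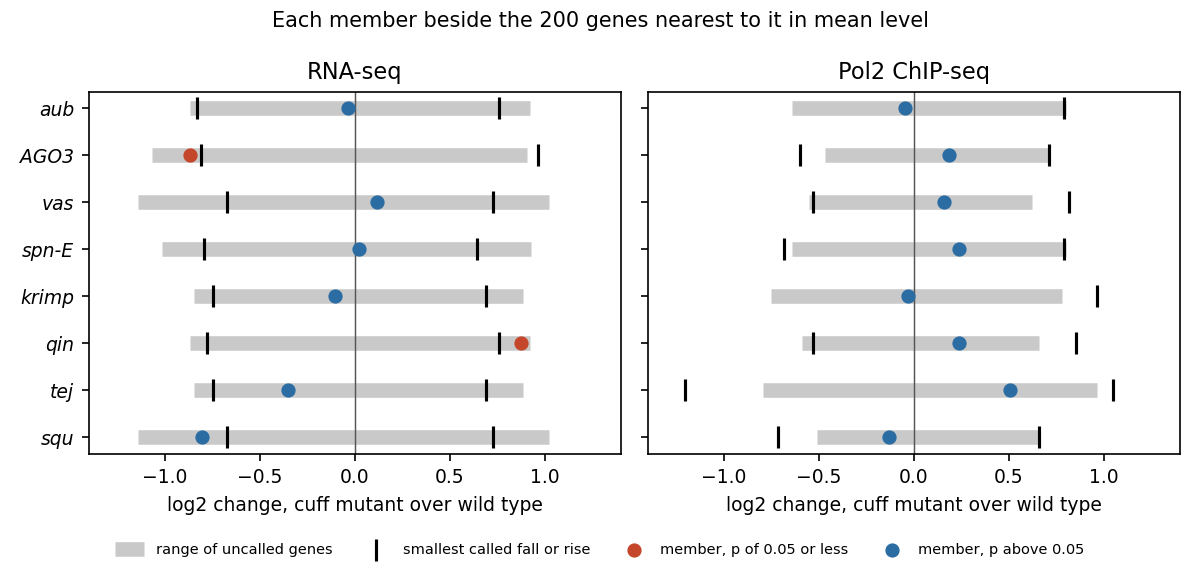
Log2 change of each gene (points) beside the 200 genes nearest to it in mean level, in RNA (left) and Pol2 (right). Grey bars run from the largest fall to the largest rise without a call, black ticks mark the smallest called fall and rise, and a missing tick means that no gene was called on that side. AGO3 and qin lie within the range where called and uncalled genes overlap, and every Pol2 point lies inside the uncalled range.

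RNA changes went with gene span over the whole table, and the members were read against it. All genes with a span were put in 5 equal classes of span. In the longest class (over 7.28 kb) the median log2 change was 0.48, with 413 genes higher and 44 lower of 2473. AGO3, vas and qin belong to this class. AGO3 is thus 1 of 44 long genes that fell. In the class that holds squ the median was -0.18, and in that of krimp and tej -0.08. Relative to the median of genes of the same class of level and of span, AGO3 stood at a log2 of -1.163, squ at -0.57 and qin at 0.59. The AGO3 value was larger in size by this measure and those of squ and qin were smaller. By that measure vas (-0.18) and krimp (0.06) changed sign, and neither passed in the first place. Whether span had a part in the change of qin or squ was not tested.

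**Figure D4:**
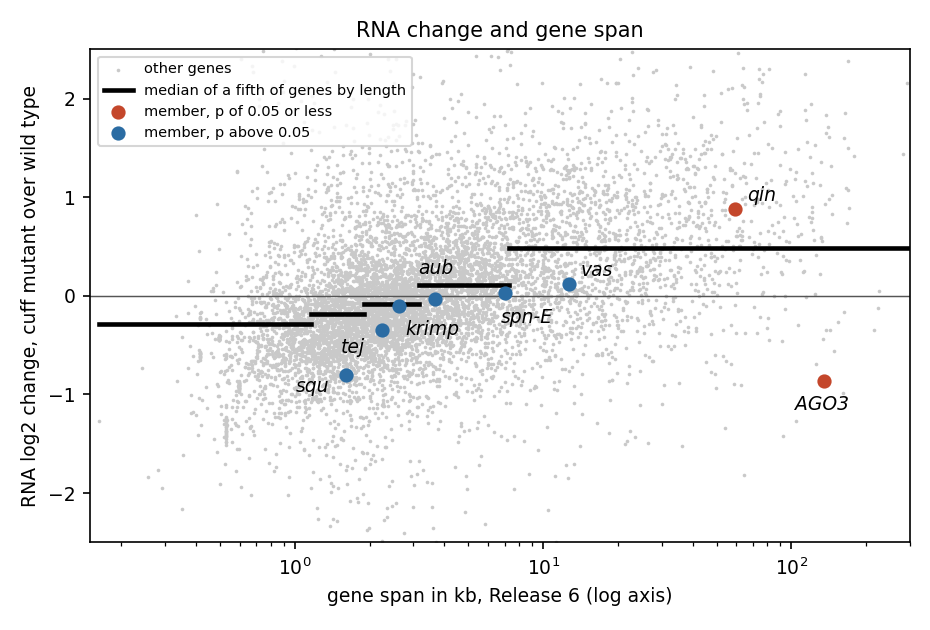
RNA log2 change, cuff mutant over wild type, against gene span on a log axis, for the 8 genes and for 8511 genes with a mean of at least 50 (168 lie outside the axes). Black lines are medians over 5 equal classes of the 12365 genes with a span. qin lies above the median of the longest class, and AGO3 at -0.86 lies well below it.

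Genes next to the members were read from the gene order of Release 6. AGO3 lies on arm 3L in heterochromatin near the centromere, and no other protein-coding gene overlaps it there. The next protein-coding gene on either side fell in RNA. CG32230 (ND-MLRQ), named as a subunit of respiratory complex I, had RNA means of 40249 and 20632, 1.95-fold lower (p = 0.03, the authors' deposited table). CG17454 (Spf30), a splicing factor, had 30051 and 14487, 2.07-fold lower (p = 0.008, the authors' deposited table).

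With 5 protein-coding genes taken on each side, 5 of the 10 AGO3 neighbours fell in RNA and none rose, and 9 of 10 had a lower mean in the mutant. This width was chosen after the values of the nearest genes had been seen. Beside CG32230 and CG17454 the fallen genes were CG32350 (Vps11), of the vacuolar sorting machinery, CG17698 and CG40470. CG32350 had RNA means of 34224 and 19641, 1.74-fold lower (p = 0.05, the authors' deposited table). CG17698 had 34562 and 18896, 1.83-fold lower (p = 0.03, the authors' deposited table). CG40470 had 235.1 and 35.8, 6.57-fold lower (p = 0.002, the authors' deposited table). By comparison, 3.73% of all genes fell in RNA and 5.5% rose. In Pol2 none of the 10 passed, the lowest p in the authors' deposited table being 0.1, and 8 of 10 means were higher in the mutant. AGO3 and most of these neighbours thus had a lower RNA mean and a Pol2 mean that was not lower. The Pol2 part of this was not particular to AGO3. Lower Pol2 means were found for 1 of 10 neighbours of spn-E and 2 of 10 of krimp, and for 3 to 6 around each other member. The median Pol2 log2 change over all genes was 0.08. In RNA, 3 to 6 neighbours of each other member had a lower mean. Pol2 means were not always low at nearly silent genes. In wild type, CG4168 near vas had 3.3 in RNA and 4667.7 in Pol2, while CG3687 near krimp had 0.3 and 126.4. How much of the Pol2 mean of AGO3 or its neighbours reflects transcription was not tested.

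Around the other 7 members 67 neighbours had RNA values, of which 5 rose and none fell by the deposited DESeq p. Those that rose were Nup154 near aub, CG8547 and Arc1 near tej, and CG42389 (mtgo) and CG31808 near squ. No neighbour of vas, spn-E, krimp or qin passed in RNA or Pol2. In Pol2, 1 neighbour of the 7 genes passed, Arc2 near tej, which fell (p = 2e-05, the authors' deposited table). Over all genes, 5.5% rose and 3.73% fell in RNA, and 0.812% rose and 0.652% fell in Pol2. Counting only the nearest gene on each side of all 8 members, 15 were listed, of which both AGO3 neighbours fell in RNA and none passed in Pol2 by the deposited DESeq p. The 13 nearest genes of the other members were CG12253 and lectin-33A beside aub, TfIIS and CG15270 (wwk) beside vas, ND23 and cv-d beside spn-E, CG3687 and CG15708 beside krimp, CG7694 and CstF-64 beside qin, Ih beside tej, and her and CG31807 beside squ. Their p in the authors' deposited table was between 0.1 and 1 in RNA and between 0.2 and 1 in Pol2. Whether the difference between AGO3 and the other members in this respect exceeds chance was not tested.

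**Figure D5:**
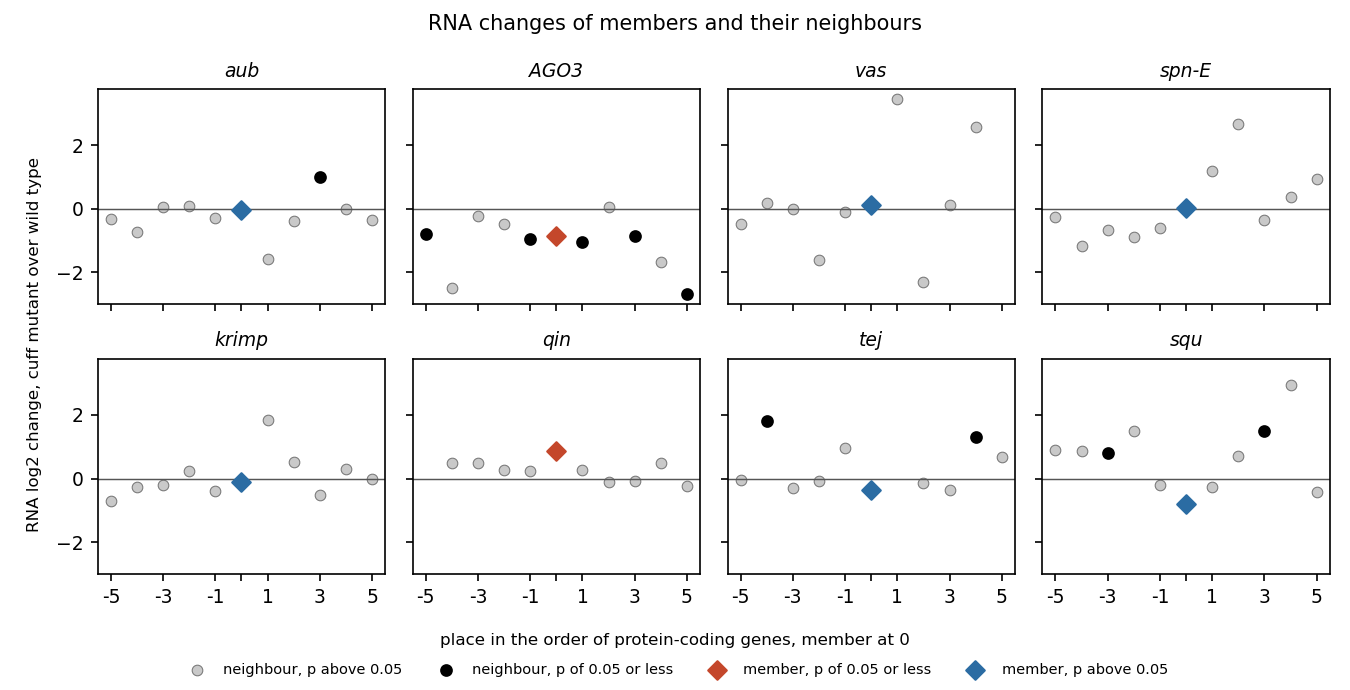
RNA log2 change, cuff mutant over wild type, of each member (diamond, place 0) and of the next 5 protein-coding genes on each side in gene order, overlapping genes left out. Black points passed the threshold. Around AGO3, 5 of 10 neighbours are black and all of these lie below 0.

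Several members share their place in the genome with other genes, and the sources used here do not say how reads in shared stretches were assigned. squ lies within the span of grp, the checkpoint kinase Chk1. The RNA means of grp were 122418 and 71277, 1.72-fold lower (p = 0.06, the authors' deposited table), close to the 1.75-fold of squ. In Pol2 grp had means of 26063 and 22689. The RNA and Pol2 values of squ are therefore uncertain as measures of squ alone. qin overlaps 5 protein-coding genes. One of them, CG31224, had RNA means of 5858.1 and 12740, 2.17-fold higher (p = 0.06, the authors' deposited table), at nearly the same level as qin. Its Pol2 means were 6792.2 and 6889.8. The qin value is therefore uncertain as a measure of qin alone, like that of squ. The other 4 overlapping genes, CG14304, CG14305 (Tssk), CG7695 and CG14301, had RNA means between 48.4 and 166.8, and none passed in either assay by the deposited DESeq p.

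None of the remaining overlapping genes passed in either assay. vig, which lies within vas, had RNA means of 5957.5 and 6236.8 (p = 0.9, the authors' deposited table), and solo, which also overlaps vas, was not analysed here. CG16833 (TTLL4A), which overlaps aub, had RNA means of 20372 and 20751 (p = 1, the authors' deposited table). Pbp45, which overlaps spn-E, had 598.6 and 656.5 (p = 1, the authors' deposited table).

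The rest of the pathway was read from lists of named genes. Of 28 further piRNA factors, 2 fell and 0 rose in RNA, with a median log2 change of 0.01. By comparison, 3.73% of all genes fell in RNA and 5.5% rose. vls, which encodes the methylosome protein Valois, fell 3.11-fold, from 2997 to 964.6 (p = 2e-05, the authors' deposited table). tsu, a subunit of the exon junction complex, fell 2.44-fold, from 37976 to 15576 (p = 0.006, the authors' deposited table). The methylosome methylates arginines of Aubergine and Argonaute3, to which the Tudor protein Tud binds. csul, its methyltransferase, had 5297.8 and 6558.2 (p = 0.6, the authors' deposited table), and tud had 45785 and 62689 (p = 0.4, the authors' deposited table). In Pol2 none of the 28 passed by the deposited DESeq p.

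Relatives of the members by protein family gave 1 further call. Of the other 3 Argonaute genes AGO1, the main Argonaute of microRNAs, rose in RNA from 20373 to 33733, or 1.66-fold (p = 0.04, the authors' deposited table). piwi, the nuclear member of the Piwi clade, had 15152 and 16048 (p = 1, the authors' deposited table), and AGO2, of the siRNA pathway, had 19175 and 26641 (p = 0.3, the authors' deposited table). Of 13 other Tudor domain genes none passed in RNA or Pol2 by the deposited DESeq p, with median log2 changes of 0.12 and -0.06. Among them, CG8920 (tapas) had RNA means of 14173 and 15377 (p = 0.9, the authors' deposited table). Of 24 other DEAD-box helicase genes none passed in either assay, with medians of 0.07 and -0.04. Over all genes, 9.24% passed in RNA and 1.46% in Pol2.

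Germline and follicle cell markers, which define the labelled ovary, were all above 0 in both genotypes. The 8 genes are known to be expressed mainly in the germline. In bulk ovaries, fewer cells of a type and less RNA per cell cannot be told apart. Over all genes, 5.5% rose and 3.73% fell in RNA, and 0.812% rose and 0.652% fell in Pol2. Of 16 female germline markers none rose and 2 fell in RNA, dhd 2.25-fold and bam 3.06-fold. Their median log2 change was -0.06, and their summed values were 1445624 and 1003766, dhd alone having 806423 and 358328. Without dhd the other 15 summed to 639201 and 645438. Of 12 follicle cell markers 7 rose and 0 fell in RNA, with summed values of 341197 and 655424, and 3 fell in Pol2. Those that rose were tj, Fas3, slbo, br, peb and the yolk protein genes Yp1 and Yp2, and those that fell in Pol2 were the vitelline membrane genes Vm26Aa, Vm26Ab and Vm32E. Without Yp1 and Yp2, which made up most of the sum, the other 10 summed to 31855 and 48225. Of 8 muscle markers 4 rose and 0 fell in RNA, with sums of 80760 and 120651, and 1 rose in Pol2. Mhc, bt, sls and up rose in RNA, and bt rose in Pol2. Tm1, with 63420 and 71281 (p = 0.8, the authors' deposited table), made up most of the sum, and the other 7 summed to 17340 and 49370, 2.85 times as much. Of 8 testis markers in the RNA table none passed by the deposited DESeq p, with sums of 18194 and 15180, sa being listed at 0 in wild type. twe, with 14598 and 11182, made up most of the sum, and the other 7 summed to 3596.2 and 3998.1. The part of these shifts in the values of AGO3, squ and qin was not tested.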

How the data were processed

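RNA-seq and Pol2 ChIP-seq of ovaries were each deposited as 1 gene table. Per the file headers, both are DESeq output with pooled dispersions from a parametric fit alone. The deposited genotype values are a signal never below 0, 1 mean for all samples of a genotype. They look like size-factor normalised reads, though the headers do not state the scale. The deposited log2 fold change is mutant over wild type. The sources used here do not say whether the deposited p was adjusted. Tools per the submitters' processing notes include DESeq 1.16.0, TopHat2 2.0.8, Bowtie2 2.0.0 and cutadapt 1.2.1, with build dm3; strand setting and annotation are not given there.

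From these values, changes were computed as log2 of value plus 1 with pandas 2.3.3 in Python 3.11.15. The centring steps and the p-value adjustment were tested on simulated data. These held a trend of change with level but none with span, so the removal of a span trend was not tested. The planned test was the deposited p at 0.05. The text names all 8 members, genes that overlap or flank them, the 3 genes nearest to each called member over the 4 means, and of each list the genes past the threshold, up to 6 by lowest p. Others are named as relatives or partners of a member, a choice made after their values were seen. Neighbours, spans and current symbols come from a Release 6 gene table, which matched 12365 of 12505 RNA genes and 13647 of 13797 Pol2 genes; it differs from build dm3, so its positions are not printed. Cuff peaks were not used, since no dm3 gene positions were at hand. The members and lists were chosen with earlier results of these data known. The labels describe replicates as separate dissections.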

Additional observations from a re-analysis of the deposited data

How the results depend on the processing

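The count of changed members in RNA rests on the threshold. It was 2 as reported and 0 with the deposited p adjusted again over all genes, 0 at a threshold of 0.01, 0 with a 2-fold difference required, and 0 with adjustment over genes with a mean of at least 50. Adjusted again by Benjamini-Hochberg, p was 0.48 for AGO3 and 0.31 for qin, though the deposited p may already be adjusted. The Pol2 count stayed at 0 in the same 4 settings. Log2 changes of the 8 genes kept their sign in 87 of 96 settings (other pseudocounts, rescaling and centring), among them every setting for AGO3 and qin. A change of pseudocount cannot turn a sign, so only the settings of rescaling and centring could have done so. AGO3 ranged from -1.163 to -0.79 and qin from 0.59 to 0.94. Signs turned only for members that had not passed. With columns rescaled to equal totals, aub stood at 0.028 in RNA and krimp at 0.014 in Pol2. Centred on genes of like level, aub stood at 0.0066 in Pol2. Centred on level and span, vas stood at -0.18 and krimp at 0.062 in RNA, and aub at 0.0065, spn-E at -0.081, krimp at 0.0018 and squ at 0.060 in Pol2. No paired analysis was possible because the columns carry 1 mean per genotype and no replicate numbers; leaving out replicates and count tests on them were not run for the same reason. Depth per sample is unknown.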

Other observations

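The genes nearest to AGO3 and qin over the 4 means (RNA and Pol2 in each genotype, Euclidean distance on the log2 scale) are given first. RNA in both genotypes enters this distance, so a like fold is part of how these genes were chosen. For AGO3 they were Ubi-p5E at a distance of 0.39, Parp at 0.45 and Acsl at 0.46. For qin they were CASK at 0.28, tmod at 0.32 and fry at 0.37.

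A list of 19 germ plasm and nuage-associated genes, which shares members with the lists of piRNA factors and germline markers, had 0 rising and 2 falling in RNA. These were vls, also counted among the piRNA factors, and bam, also counted among the germline markers, and none of the 19 passed in Pol2 by the deposited DESeq p. The median log2 change of the 19 genes was -0.03 in RNA and -0.15 in Pol2. By comparison, 3.73% of all genes fell in RNA and 5.5% rose. osk, whose protein builds the pole plasm and recruits Vasa, had RNA means of 113027 and 110687 (p = 1, the authors' deposited table). nos, the translational repressor of the posterior, had 69241 and 43537 (p = 0.1, the authors' deposited table). gus, which binds Vasa, had 318106 and 243183 (p = 0.3, the authors' deposited table).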
